A study of Mus musculus with 4 samples.

Results

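The 77 genes that encode proteins of the cytosolic ribosome were examined in RNA sequencing libraries of mouse T-helper 2 (Th2) cells, together with the 18 genes annotated on the other DNA strand whose exons overlap theirs. Members were taken by symbol, as protein-coding genes named Rpl or Rps followed by a number plus Rpsa, Rplp0, Rplp1 and Rplp2, from the 50600 genes in the files. Of 102 protein-coding symbols that begin this way, 25 were left out. These were 10 genes of S6 kinases, 7 like-named paralogs, 6 with the pseudogene suffix, and Rps27rt and Rps19bp1, which are not core subunits although the letter of the rule would keep them. Of the 77 members, 46 belong to the large subunit and 31 to the small subunit.

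The study sequenced RNA of primary Th2 cells, CD4 T cells that make interleukins 4, 5 and 13, from the mouse strain C57BL/6NJ. All 4 libraries form 1 group, with no genetic change, treatment or control condition named, and neither age nor sex was recorded. Each library has its own biosample, while all carry the same donor identifier, so p-values measure only the spread between these libraries, which may be technical. The labels name a protocol for differentiating CD4 T cells and call the assay total RNA sequencing, whereas the protocol document is titled for poly(A) RNA. The file headers carry a time of 72 hr.

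A cytosolic ribosome is a small subunit that decodes the mRNA and a large subunit that joins amino acids, each built from ribosomal RNA and a set of proteins mostly encoded by single active genes. Their mRNAs are among the most abundant in dividing cells and typically begin with a run of pyrimidines, the terminal oligopyrimidine (TOP) tract, through which mTOR signalling controls their translation. Activated T cells make many ribosomes as they grow and divide.

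In the deposited counts a fragment belongs to a gene only if read 1 lies on the strand of that gene. A member's own-strand count is that value, and fragments read from the other strand at its locus were counted only where a partner gene is annotated there, under the partner's name. The sources used here do not give which strand of the RNA read 1 carries in these libraries. If read 1 is complementary to the RNA, every own-strand value below, of members, markers and partners alike, counts RNA of the other strand, so that a partner's count would then hold RNA from the member's strand and the reverse. Of the members, 16 (20.8%) had at least 1 exonic base under an exon on the other strand, beside 22.1% of the 21764 protein-coding genes. These 16 members made 18 pairs with 15 protein-coding and 3 antisense genes, and 61 members had no partner.

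Replicates 1, 3 and 4 held 2388255, 1929880 and 1713199 counts in genes, and replicate 2 held 5016 and is given only where named. The 3-count detection floor was 1.26 to 1.75 CPM (counts scaled to the library total) in the 3 deep libraries and 598 CPM in replicate 2. All 7 T cell markers (Cd3d, Cd3e, Cd3g, Trac, Cd4, Cd2, Cd5) and all 6 Th2 markers (Gata3, Il4, Il5, Il13, Ccr4, Ptgdr2) had counts on their own strand, at a median of 13.8 and 22.1 TPM (counts scaled to exonic length and library total). Of 8 markers of other cells, 5 were at 0, among them Ms4a1, Cd14, Ncr1 and Itgax, and Cd8a, Cd8b1 and Lyz2 had 1 to 4 counts over the 3 libraries.

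Coding exons of Rpl23a and Rpl35 that lie opposite a partner are shown first, because the partners of these 2 members were among the 3 with the highest counts. Rpl35 exon 2, with 21 of 137 coding bases under Wdr38, and shorter stretches are left out. Each line is the coding part of 1 exon of the member, 5′ to 3′ on the member's strand, from the transcript sequences of GENCODE vM21 (mm10), with the bases under a partner exon in capitals. Both Rpl23a exons shown are covered in full by exons of Tlcd1, and Rpl35 exon 4 is covered over 81 of 147 bases by Wdr38. The main coding transcript of Tlcd1 covers 0 bases of its overlap with Rpl23a, and that of Wdr38 covers 3 bases of its overlap with Rpl35. Nearly all of these overlaps thus lie in other annotated exons of the partners.
Rpl23a exon 3, chr11:78181417-78181593, minus strand: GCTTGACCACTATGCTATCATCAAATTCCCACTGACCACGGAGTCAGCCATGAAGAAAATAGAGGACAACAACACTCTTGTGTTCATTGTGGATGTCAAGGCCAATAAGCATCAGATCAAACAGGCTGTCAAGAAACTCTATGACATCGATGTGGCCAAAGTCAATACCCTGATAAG
Rpl23a exon 4, chr11:78181154-78181223, minus strand: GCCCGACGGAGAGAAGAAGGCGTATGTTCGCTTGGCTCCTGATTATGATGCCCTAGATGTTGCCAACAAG
Rpl35 exon 4, chr2:39001619-39001765, minus strand: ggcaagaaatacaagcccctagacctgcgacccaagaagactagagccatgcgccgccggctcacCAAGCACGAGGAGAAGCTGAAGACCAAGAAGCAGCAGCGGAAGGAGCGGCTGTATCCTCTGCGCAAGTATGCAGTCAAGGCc

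Sequence at the start sites, which the naming rule did not use, was read next. RefSeq promoters (GRCm38.p6) were at hand for 57 of the 77 members. On the gene's strand, an unbroken run of 5 or more pyrimidines (C or T) that begins with C within 10 bases of the start was present in 34 of these 57 (59.6%), against 34.4% of 27025 genes. The letters CTTTCC lay within that window in 8 of 57 members, against 1.03% of all genes, and CTCTTT in 7 of 57 (12.3%), against 0.87%. On the opposite strand the same letters were found in 0.0% and 1.8% of members, against 0.91% and 0.69% of all genes. A match says only that these letters are in the window. Lines below show 20 bases before to 20 bases from the annotated start, with the pyrimidine run in capitals, for members with a long run and for Rps24, Rps6 and Rpl38, which are described further on.
Rpl35, chr2:39005112-39005151, minus strand: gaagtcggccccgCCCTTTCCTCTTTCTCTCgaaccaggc
Rpl15, chr14:18270967-18271006, minus strand: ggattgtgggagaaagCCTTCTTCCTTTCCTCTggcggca
Rpl27a, chr7:109519175-109519214, plus strand: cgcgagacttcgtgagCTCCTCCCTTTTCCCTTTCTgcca
Rps24, chr14:24490658-24490697, plus strand: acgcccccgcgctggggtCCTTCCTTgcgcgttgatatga
Rps6, chr4:86857348-86857387, minus strand: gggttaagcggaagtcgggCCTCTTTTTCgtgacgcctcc
Rpl38, chr11:114668560-114668599, plus strand: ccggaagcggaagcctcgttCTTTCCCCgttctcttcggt

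The own-strand level of the members was asked first. Every one of the 77 had at least 1 count in each of replicates 1, 3 and 4, which held for 42.9% of protein-coding genes. Their median level was 63.0 TPM in replicate 1, 25.4 TPM in replicate 3 and 56.6 TPM in replicate 4, where the median protein-coding gene was at 0.166, 0.0 and 0.14 TPM. The median member lay at percentile 97.1 of protein-coding genes by mean level. Within the set, mean levels ran from 1.09 to 427 TPM, with 17 members at 100 TPM or more and 5 below 10 TPM.

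The counts behind these levels were small for many members. Replicate 3 held fewer than 20 counts for 9 of them. TPM here divides by the exonic length of all transcripts of a gene together, 404 bases for Rpl36 and 6270 for Rps15a, so long minor transcripts lower a gene's level. The authors' counter dropped fragments that fit 2 genes on 1 strand. Exonic bases were shared with a same-strand gene in 26 members, in 24 of them with a small nucleolar RNA (snoRNA) gene annotated in the member's exons. The 30 snoRNA genes concerned had 1 count in all. Fragments that map to several places were dropped as well. The 283 genes named after members with the pseudogene suffix held 173, 92 and 138 counts in replicates 1, 3 and 4, and 63 of them had any. How far copies of this kind lowered single members was not tested.

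Large-subunit members had a median mean level of 42.2 TPM and small-subunit members one of 56.2 TPM, on ranges of 1.09 to 427 TPM and 9.37 to 391 TPM. Rpl23a, a protein beside the exit of the nascent peptide tunnel, had 584, 290 and 407 TPM in replicates 1, 3 and 4, a mean of 427 ± 148 TPM (SD, n = 3). Rps24, a small-subunit protein, had 594, 207 and 374 TPM (391 ± 194), and Rpl36 had 559, 298 and 292 TPM (383 ± 152). Replicate 1 was the highest library for all 3 genes, and their means differed by less than the spread between libraries. The other members among the 10 highest were Rpl4 at 283 ± 119 TPM, Rpl17 at 261 ± 109, Rps25 at 249.8 ± 38.4, Rpl41 at 224.5 ± 142, Rps15 at 208 ± 102, Rplp1 at 189 ± 86.7 and Rpl32 at 177 ± 73.1. Rps25 varied least among these 10, with 294, 228 and 227 TPM.

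**Figure D1:**
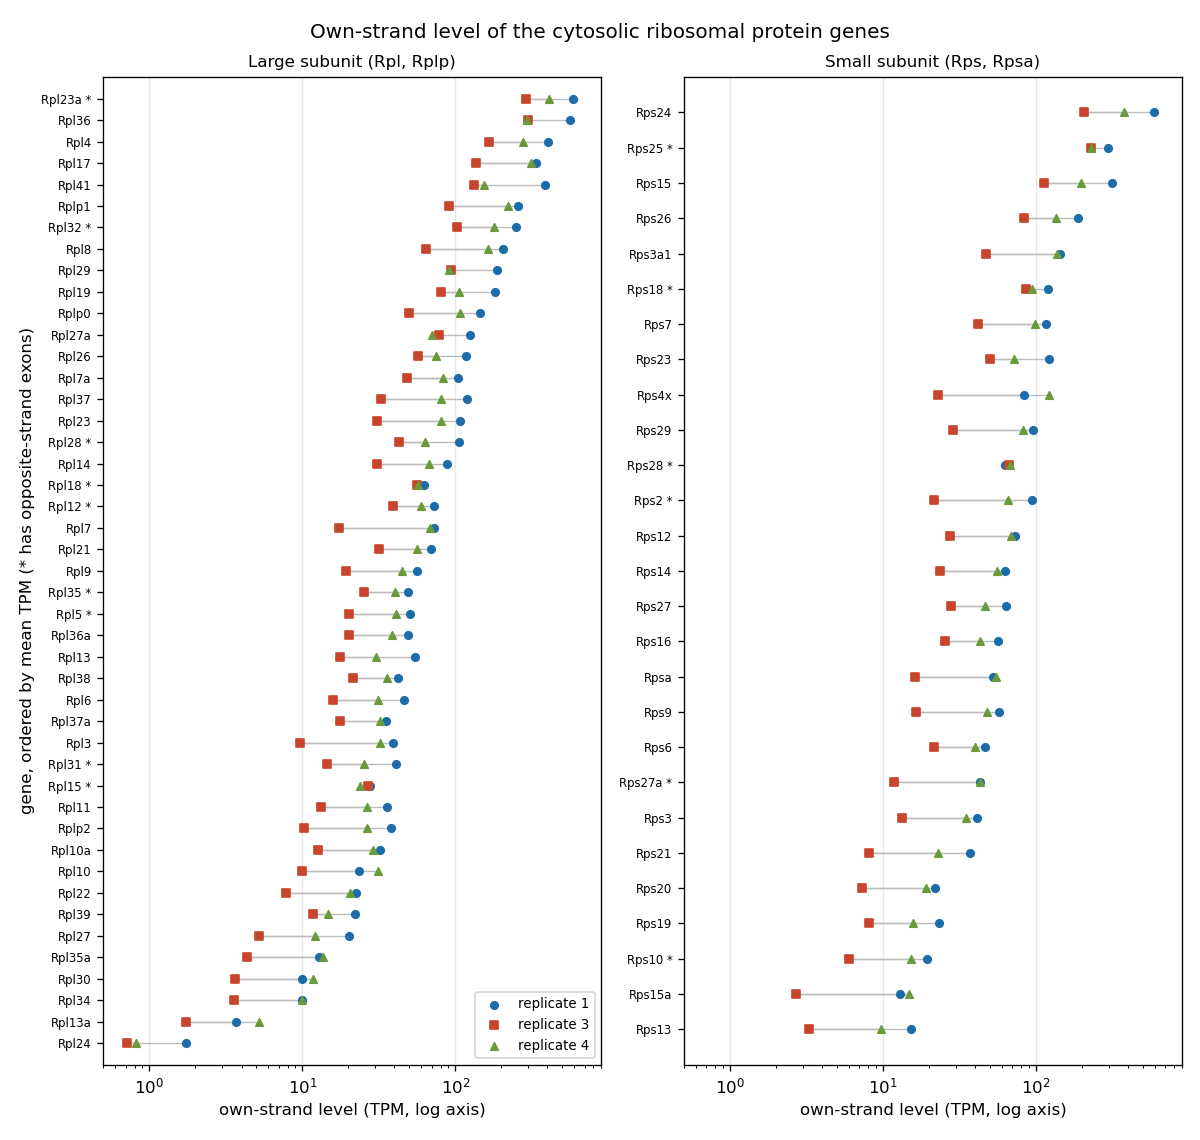
Own-strand level of 72 of the 77 members in TPM (log axis) in replicates 1, 3 and 4, 1 row per gene ordered by mean level, large subunit at left and small subunit at right, with an asterisk on genes that have opposite-strand exons. The square of replicate 3 is the lowest of the 3 points in 66 of 72 rows, and Rpl24 and Rpl13a sit apart at the bottom.

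The 2 lowest members were genes with long overlaps on their own strand. Rpl24, a large-subunit protein gene, had 3, 1 and 1 counts (1.09 ± 0.568 TPM) and shares 484 of its 1030 exonic bases with Gm28037. Rpl13a, known also for binding interferon-responsive mRNAs, had 13, 5 and 13 counts (3.53 ± 1.74 TPM) and shares 621 of 2114 bases with Gm45713, and both of these neighbours had 0 counts in the deep libraries. The next were Rpl34 at 7.82 ± 3.66 TPM, Rpl30 at 8.42 ± 4.25 and Rps13 at 9.37 ± 5.94, which had no exon shared with a protein-coding neighbour. The value of each of these 5 rests on 68 counts or fewer in any library.

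Members with known roles of their own differed widely in level. The stalk proteins, which recruit elongation factors, had 144, 49.7 and 108 TPM for Rplp0, 256, 90.7 and 219.7 TPM for Rplp1, and 37.9, 10.2 and 26.5 TPM for Rplp2 in replicates 1, 3 and 4. Replicate 3 was lowest for each, and the mean of Rplp2 (24.8 ± 13.9) was below every library of Rplp0 and Rplp1. Rpl5 and Rpl11, which with 5S rRNA bind Mdm2 and stabilise p53 when assembly fails, stood at 37.2 ± 15.4 and 25.3 ± 11.4 TPM. Rps6, the substrate of the S6 kinases, had 46.1, 21.6 and 39.9 TPM, and Rpsa, also known as the laminin receptor precursor, had 52.1, 16.1 and 54.8 TPM. Rpl22, required in mice for the development of alpha-beta T cells, had 22.4, 7.77 and 20.6 TPM. Rpl38, linked to translation of Hox mRNAs, had 38, 16 and 23 counts (33.1 ± 10.5 TPM). Rps27a, made as a fusion with ubiquitin, had 43.1, 11.8 and 43.2 TPM. In each of these genes replicate 3 lay below the other 2 libraries.

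Ribosomal proteins outside the naming rule were set beside the members. Fau, which encodes the S30 protein fused to a ubiquitin-like domain, had 209, 41 and 85 counts (92.7 ± 58.6 TPM), and Rack1 had 292, 84 and 198 (26.3 ± 12.4 TPM). Among the like-named paralogs, Rpl7l1 had 41, 7 and 30 counts, Rpl36al 19, 6 and 12, Rps27l 17, 5 and 19, Rpl22l1 12, 5 and 12, and Rpl3l 1, 0 and 4. Rpl10l, Rpl39l and Rps4l had no count in any library. The paralogs with counts were thus all below the median member, which had 63.0, 25.4 and 56.6 TPM: Rps27l, the highest of them, averaged 12.2 ± 7.59 TPM.

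Members and partners were then compared within each library, with counts per exonic base of both genes in 1 edgeR quasi-likelihood fit over 3048 overlapping pairs (Benjamini-Hochberg adjustment over all pairs). The partner was higher in 6 of the 18 pairs, the member was higher in 10, and 2 were not called. Over all tested pairs, read from the side of each protein-coding gene (4097 readings), the partner was higher in 61.6% and lower in 29.3%. A pair of 2 protein-coding genes was read from both sides and added equally to both shares. The excess of higher partners therefore came from partners that are not protein-coding. Since 15 of the 18 partners of the members are protein-coding, these shares give no measure for the members. Summed over partners, the counts were 2.9% (Wilson 95% interval 2.88 to 2.92), 3.16% (3.13 to 3.18) and 2.87% (2.85 to 2.9) of the libraries of replicates 1, 3 and 4. All 77 members together held 0.866% (0.854 to 0.878), 0.388% (0.379 to 0.397) and 0.646% (0.634 to 0.658). The intervals cover counting error only. Counts under the 18 partners' names were 3.35, 8.14 and 4.45 times those under the 77 members' names, and 3 partners made up most of this. Whether these fragments are RNA of the partner's strand or of the member's was not tested.

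Those 3 were the partners that lie over coding exons of the member, and 2 of them are described. Tlcd1, a membrane lipid regulator, had 27670, 22921 and 18228 counts opposite Rpl23a, which had 826, 337 and 409. Wdr38, a WD-repeat protein gene, had 10477, 9601 and 7795 counts opposite Rpl35, whose product also sits at the tunnel exit and which had 101, 43 and 59. In both pairs the partner exceeded the member in every library, with no overlap between the 2 strands. Per exonic base the partner was higher by 2.98 ± 0.3 on the log2 scale (fit and SE) for Tlcd1 (edgeR adjusted p = 2.9e-05) and by 5.95 ± 0.33 for Wdr38 (1.17e-06).

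**Figure D2:**
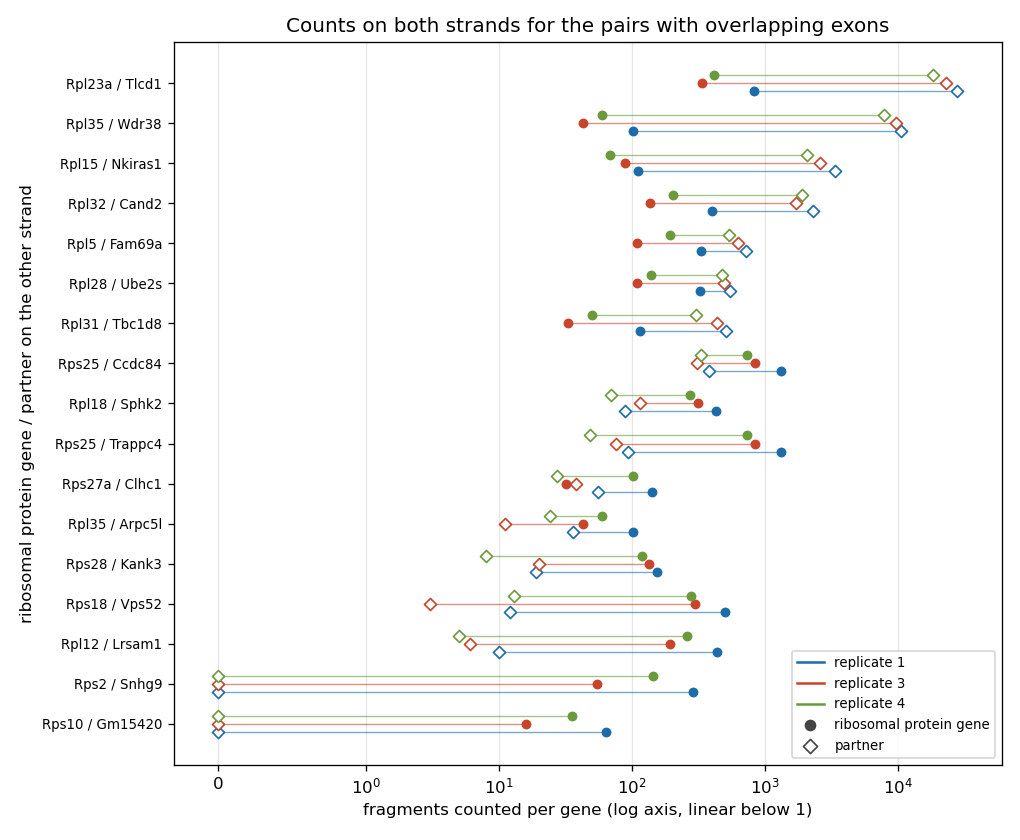
Fragments counted for the ribosomal protein gene (filled circles) and its partner (open diamonds) in 17 of the 18 pairs, 3 lines per pair for replicates 1, 3 and 4, on a log axis that is linear below 1. From top to bottom the partner falls from 27670 counts (Tlcd1, replicate 1) to 0 (Gm15420 and Snhg9), while members stay between 16 and 1322.

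Where at least part of the overlap lay in the 3′ UTR of the main transcript and none in its coding sequence, the outcome was mixed. Fam69a, whose exons cover 953 bases of the 3′ end of Rpl5, had 718, 625 and 534 counts over the whole gene. Rpl5 had 329, 109 and 191, a log2 difference per base of 2.13 ± 0.31 (edgeR adjusted p = 2.63e-04). Counts are of whole genes in every pair, and fragments inside the overlaps were not counted apart. Cand2, a cullin-associated protein gene, had 2289, 1699 and 1893 counts opposite Rpl32 with 401, 136 and 203. The raw count was higher for Cand2 in each library, but the gene is longer, and the difference per base was 0.61 ± 0.26 (adjusted p = 0.0576), which was called with replicate 2 (adjusted p = 0.0324), without replicate 1 (0.0365) and without replicate 3 (0.0403). Ube2s, the ubiquitin-conjugating enzyme of the anaphase-promoting complex, had 545, 487 and 473 counts opposite Rpl28 with 324, 108 and 138. Per base these 2 genes were not called apart (0.07 ± 0.3, adjusted p = 0.825). In the fourth such pair the order was turned: Rps25 had 1322, 841 and 725 counts, and Ccdc84 had 378, 306 and 326 (-2.1 ± 0.23, adjusted p = 4.46e-05).

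Among the 11 overlaps wholly outside the main transcript or wholly in its 5′ UTR, the partner was higher in 2. Nkiras1, which encodes a Ras-like protein that binds inhibitors of NF-kappaB, had 3326, 2588 and 2040 counts opposite Rpl15 with 111, 88 and 68 (3.72 ± 0.22, edgeR adjusted p = 1.53e-06). Tbc1d8, with a Rab GTPase-activating domain, had 504, 434 and 304 counts opposite Rpl31 with 114, 33 and 50 (1.12 ± 0.32, adjusted p = 0.0115), a call lost without replicate 4 (adjusted p = 0.0571). In the other 9 pairs of this kind the member was higher per base. Sphk2, a sphingosine kinase gene, had 89, 115 and 69 counts opposite Rpl18 with 423, 310 and 274 (-1.93 ± 0.24, adjusted p = 1.21e-04). Trappc4, of a vesicle tethering complex, had 93, 75 and 48 opposite Rps25 (-3.6 ± 0.23, adjusted p = 2.29e-06). Both members exceeded their partners in each library. Clhc1 had 55, 38 and 27 opposite Rps27a with 142, 32 and 101, so that replicate 3 ran the other way by raw count. Its difference per base (-1.23 ± 0.43, adjusted p = 0.0254) was not called without replicate 1 (adjusted p = 0.128) or without replicate 4 (0.222).

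The remaining partners had 36 counts or fewer in any library. Arpc5l, an Arp2/3 complex gene that overlaps the 5′ end of Rpl35, had 36, 11 and 24 counts (-3.39 ± 0.31), so Rpl35 was below 1 partner and above the other. Kank3 had 19, 20 and 8 counts opposite Rps28 with 154, 134 and 118 (-4.22 ± 0.33). Vps52, a subunit of the GARP tethering complex, had 12, 3 and 13 counts opposite Rps18 with 496, 294 and 276 (-5.88 ± 0.39). Lrsam1, a ubiquitin ligase gene that overlaps the 5′ end of Rpl12, had 10, 6 and 5 counts, and Rpl12 had 436, 192 and 256 (-5.87 ± 0.3). In each of these 4 pairs the member was higher in every library, with adjusted p of 1.62e-05 or below in the edgeR fit. Snhg9, a snoRNA host gene, had no count opposite Rps2 with 287, 54 and 143, which makes Rps2 at least 16.1-fold higher per base against a floor of 3 counts over the 3 libraries. Gm15420 likewise had none opposite Rps10 with 63, 16 and 35, which makes Rps10 at least 7.49-fold higher.

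By region, the 3 partners over coding exons had 27873 to 68819 counts summed over replicates 1, 3 and 4. The 4 partners placed under 3′ UTR had 1010 to 5881 and the 2 under 5′ UTR had 21 and 71. The 9 outside the main transcript had 0 to 7954. With 2 to 9 pairs per region these are descriptions, and the region was read from 1 main transcript per member. Each pair counts once, as coding if any coding base is covered, otherwise as 3′ UTR, then 5′ UTR. Wdr38 is thus coding on 105 bases, though it covers 538 bases of the 5′ UTR of Rpl35. Ccdc84 is placed under 3′ UTR on 31 of 206 bases, with 175 outside the main transcript. For Ube2s, Lrsam1 and Arpc5l the partner's own main transcript covers 0 bases of the overlap.

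Libraries were compared last, with each of the 3 deep libraries set against the other 2 in an edgeR quasi-likelihood fit over 6922 genes (Benjamini-Hochberg adjustment over all genes). The single library is taken to scatter as the remaining pair does, so the spread rests on that pair alone, and a call separates libraries rather than conditions. The 76 members tested, all but Rpl24, gave 0 calls in replicate 1, where 0.0289% of all genes were higher and 0.0% lower, and 0 calls in replicate 4, where 0.0144% were higher and 0.0289% lower. With DESeq2 the median member was 0.6 above the other pair on the log2 scale in replicate 1 and 0.11 in replicate 4. The median of all genes was -0.02 in both. The lack of calls does not place these libraries alike. In replicate 1 the median member was 0.66 above the other pair on the log2 scale, against 0.05 for all genes, 1.3% of members lay below 0 against 45.6% of all genes, and 68 of 77 members had their highest CPM there. In replicate 4 the median was 0.12, against 0.01 for all genes. In both tests the remaining pair holds replicate 3. With replicate 2 (5016 counts) in its place, the median member was 0.28 in replicate 1 and -0.33 in replicate 4. The medians of all genes there were 0.09 and 0.07. With replicate 2 in place of replicate 4, the median member in replicate 1 was 1.15, against 0.23 for all genes. With replicate 2 in place of replicate 1, the median member in replicate 4 was 0.84, against 0.2 for all genes.

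Replicate 3 gave the calls. With TMM scaling 57 of the 76 members fell and none rose, beside 12.4% of all genes lower and 2.79% higher, while under TMM over genes with no opposite-strand exons 7 members fell and 6 rose (1.7% and 40.6% of all genes), and DESeq2 called 7 lower. The median log2 difference of the members was -1.11 with TMM, against -0.11 for all 6922 genes. The second scaling moved the median of all genes to 0.72 and that of the members to -0.27, and since a scaling shifts all genes of a library alike, the distance between the medians stayed at about 1 by construction. With no filter on low counts that distance was 0.58. With TMM, 33 of 45 large-subunit and 24 of 31 small-subunit members fell, with medians of -1.08 and -1.2, while under the second scaling the medians were -0.24 and -0.37, with 2 and 5 lower and 3 and 3 higher.

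Much of this difference was shared by genes read on a strand without a partner. Of all tested genes without opposite-strand exons, 22.0% were lower in replicate 3, with a median of -0.82, and of those with such exons 4.82% were lower, with a median of 0.12. Of the members without a partner 47 of 60 fell, with a median of -1.16, which is 0.34 below their class. Of the 16 members with a partner 10 fell, with a median of -0.74, which is 0.86 below theirs. A change of scaling leaves these distances as they are. With no filter on low counts the median minus that of the class was -0.15 and -0.79, and with replicate 2 added and replicate 4 left out it was -0.5 and -1.11.

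**Figure D3:**
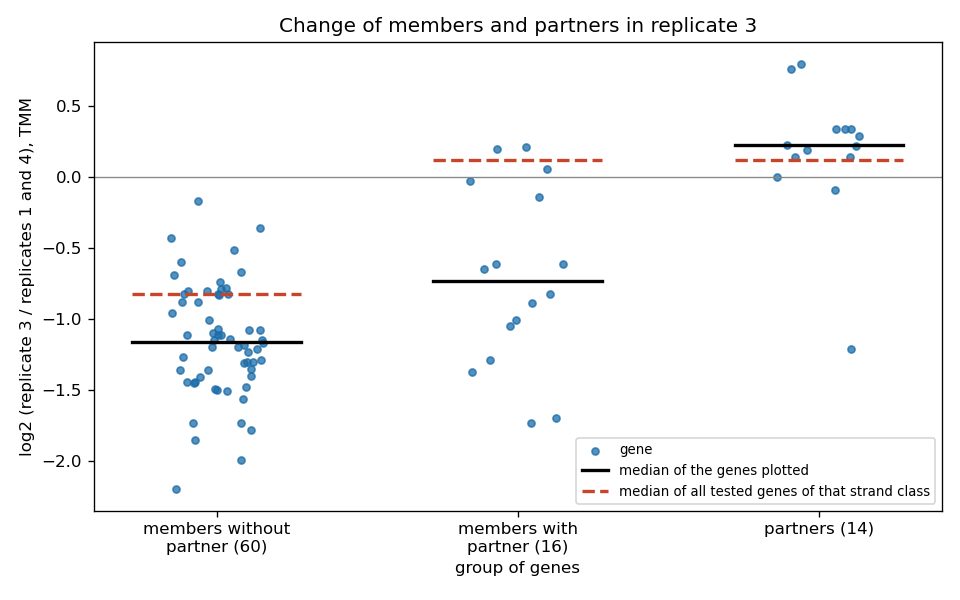
Log2 difference between replicate 3 and replicates 1 and 4 (TMM) for 60 members without a partner, 16 members with a partner and 14 partners, each point 1 gene, with the median of the plotted genes as a solid line and that of all tested genes of the same strand class as a dashed line. Members lie below the dashed line by 0.34 and 0.86 in the median, and the partners lie near it.

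The largest decreases were in Rps15a, with 135, 23 and 110 counts in replicates 1, 3 and 4 (-2.2 ± 0.37, edgeR adjusted p = 5.22e-07), and in Rps4x, the X-linked small-subunit gene, with 228, 51 and 235 (-1.99 ± 0.28, 5.71e-10). Rpl7 had 324, 64 and 218 counts (-1.85 ± 0.26, 6.56e-10). In these 3 genes replicate 3 lay below both other libraries by more than those differed from each other, per library total. Rps13, Rpl3, Rps21, Rps2, Rps27a, Rpsa, Rps9 and Rplp2 also fell, with log2 differences of -1.78 to -1.5. The 20 members at -1.49 to -1.2 included Rps29, Rpl27, Rpl37, Rpl35a, Rpl23, Rps3a1, Rpl30, Rps10, Rpl8, Rps3, Rps20, Rpl22, Rpl10, Rplp1, Rpl9, Rps12 and Rps7. The 14 at -1.18 to -1.01 included Rplp0, Rpl14, Rps14, Rpl6, Rps19, Rpl10a, Rpl13, Rpl11, Rpl17, Rps24, Rpl31, Rps15 and Rpl5. The 12 at -0.96 to -0.61 included Rpl36a, Rpl32, Rpl4, Rpl41, Rpl21, Rpl28, Rpl7a, Rps26, Rpl19, Rpl23a and Rpl12. Under TMM over genes with no opposite-strand exons, the 7 that fell were Rps15a, Rps4x, Rpl7, Rpl3, Rps2, Rps27a and Rpsa.

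The 19 members not called in replicate 3 had differences of -1.3 to 0.21. Rps25, Rpl18, Rps18, Rps28 and Rpl15, which all have a partner, and Rpl27a, which has none, were closest to 0. Rps28 had 63, 66.8 and 68 TPM in replicates 1, 3 and 4 (0.2 ± 0.26, edgeR adjusted p = 0.651), and Rpl15, of the large subunit, had 27.7, 26.8 and 23.9 TPM (0.21 ± 0.3, 0.671). Rpl18 had 62.6, 56 and 57.2 TPM (0.06 ± 0.19, 0.849). For these 3 genes the libraries lay within a narrow range, unlike most members. These 6 were the members higher in replicate 3 under the second scaling, by 0.68 to 1.05. Rps6 (-0.83 ± 0.33, adjusted p = 0.0698) and Rpl38 (-0.69 ± 0.52, 0.37) were not called.

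The partners were read from the same fit. The 14 partners tested had a median log2 difference of 0.22 in replicate 3, against 0.12 for all genes with opposite-strand exons. They ran from -1.21 ± 0.56 (Arpc5l) to 0.8 ± 0.55 (Kank3), both with few counts. Wdr38 stood at 0.29 ± 0.09 and Tlcd1 at 0.23 ± 0.07. In replicates 1 and 4 edgeR and DESeq2 called 0 partners, with 0 at an unadjusted p under 0.05. In replicate 3 edgeR with TMM called some partners higher, Wdr38 and Tlcd1 among them, but DESeq2 did not. Under the scaling on genes without opposite-strand exons 12 partners rose, where 63.2% of all genes with opposite-strand exons were higher, and nothing is read from that count.

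The member count as a share of the partner count, which needs no scaling between libraries, was taken next. For Rpl23a it was 2.99%, 1.47% and 2.24% of Tlcd1 in replicates 1, 3 and 4. For Rpl35 it was 0.964%, 0.448% and 0.757% of Wdr38. Replicate 3 was lowest in both pairs and in 7 of the 9 pairs whose partner had 300 or more counts in each library. The share over all overlapping pairs of that depth was not computed, so this count is not read as a trait of the members. Rpl15 stood at 3.34%, 3.4% and 3.33% of Nkiras1, with no library apart, and Rps25 was at 350%, 275% and 222% of Ccdc84, lowest in replicate 4.

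**Figure D4:**
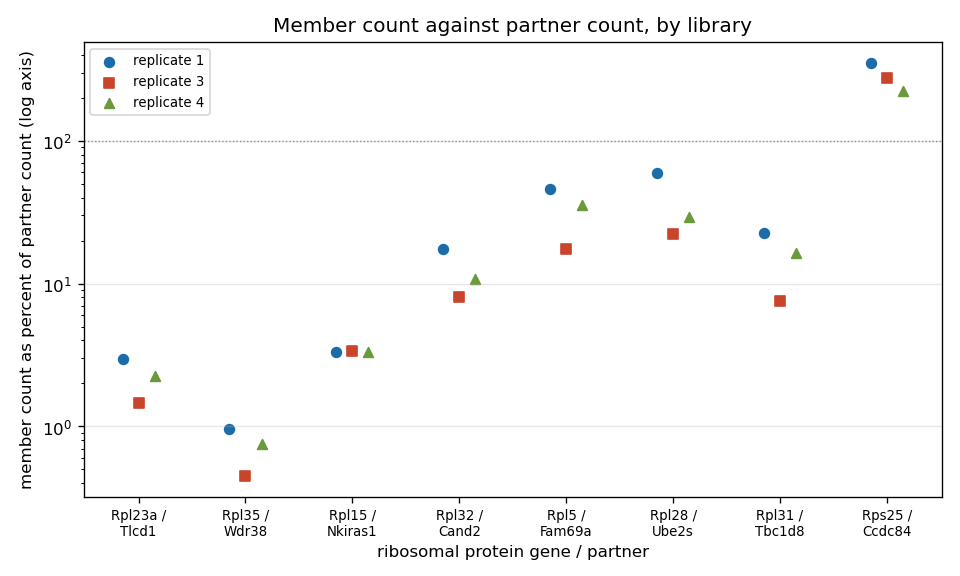
Count of the ribosomal protein gene as a percent of its partner's count (log axis) in replicates 1, 3 and 4, for 8 of the 9 pairs with 300 or more partner counts in each library. Replicate 3 is the lowest point in 6 pairs, and Rpl15 over Nkiras1 is nearly the same in all 3 libraries, at 3.33% to 3.4%.

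Other genes of the ribosome's life cycle were read from the same fit. The 18 assembly and nucleolar factors tested out of 20 had a median log2 difference of -0.98 in replicate 3 with TMM, against -0.11 for all genes. With TMM the medians of all genes without and with opposite-strand exons were -0.82 and 0.12. Under TMM over genes with no opposite-strand exons the median of these factors was -0.15, where that of all genes was 0.72. Npm1, a nucleolar chaperone, had 1284, 307 and 696 counts (-1.43 ± 0.17, edgeR adjusted p = 1.49e-14) and Ncl, nucleolin, 1235, 326 and 670 (-1.29 ± 0.17, 7.6e-12). Bysl, a factor of small-subunit assembly, was not called, with 3255, 2611 and 2184 counts (0.17 ± 0.11, 0.303). Bysl shares 361 exonic bases with Ccnd3 on the other strand. The 15 other genes whose mRNAs carry a TOP tract had a median of -1.32 with TMM and -0.48 under the second scaling. Eef1a1, the elongation factor that delivers aminoacyl-tRNA, had 2057, 622 and 1578 counts (-1.33 ± 0.14, 1.39e-17), and Eef2, which moves the ribosome along, had 991, 301 and 592 (-1.15 ± 0.17, 6.53e-09). In both genes replicate 3 lay below the other libraries. The 6 tested ribosomal proteins outside the rule and paralogs had a median of -1.44 with TMM and -0.6 under the second scaling.

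In the same fit the 7 T cell markers and the 6 Th2 markers had median log2 differences of -1.36 and -0.91 in replicate 3 with TMM. That of the members was -1.11, so a difference of this size was not particular to them. Under the second scaling the medians of the T cell and Th2 markers were -0.53 and -0.08. The summed level of the T cell markers was 119, 41.2 and 131 TPM and that of the Th2 markers 190, 106 and 189 TPM in replicates 1, 3 and 4, while the 8 markers of other cells summed to 0.972, 0.0 and 1.78 TPM. Their part in the difference of the members was not tested, and in bulk RNA fewer cells of a type and less RNA per cell cannot be told apart.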

How the data were processed

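The deposited values were whole fragment counts per gene, made by the authors with featureCounts 1.4.6-p4 over GENCODE vM13 exons (mm10, aligned with STAR), paired, with both mates mapped and strand setting 1, per the file headers. No option for multi-mapping or multi-gene fragments was set. Members and lists were chosen with earlier results of these data known. Symbols came from GENCODE vM21 by identifier (50376 of 50600 matched). Exon overlaps of 1 base or more were found with bedtools 2.31.1. TPM used exonic length.

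Pairs with 30 or more summed counts were tested with edgeR 4.0.16 (R 4.3.3), with a library block and log length offset. Libraries were compared with TMM and a mean count of 10 or more. Thresholds were 0.05 after Benjamini-Hochberg adjustment. limma 3.58.1, DESeq2 1.42.0, other filters, scalings, overlaps and left-out libraries were alternatives, and class backgrounds and median-relative changes were added after seeing the data. Both tests were tested on simulated data. No 2 libraries agreed within sampling noise (chi-square per degree of freedom 1.77 to 9.93). Named were the 10 highest members, the 10 with the highest partners, members of pairs not called for the partner, members called apart, the 5 lowest and 10 of known role. Amino acid sequences were not used here. Single results for a few genes are not reported here, though counts over the set include them.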

Additional observations from a re-analysis of the deposited data

Results flagged for a closer look

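Replicate 2 was not used in the tests, yet its 5016 counts were enough to register both groups of genes above the 3-count floor. Members held 89 counts, or 1.77% of the library (Wilson 95% interval 1.44 to 2.18), and partners held 127, or 2.53% (2.13 to 3.0). The members' share was above the 0.388% to 0.866% of the deep libraries, and the partners' share was below their 2.87% to 3.16%, with 1.43 partner counts per member count. At this depth 47 of the 77 members had any count, Rpl23a had 3 and Tlcd1 had 36.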

How the results depend on the processing

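The number of pairs with the partner higher was 6 with 10 or 300 summed counts, with limma, without the replicate block and with overlaps of 100 bases or more, 8 without the length offset, 7 with replicate 2, and 5 to 7 when 1 library was left out. Ube2s against Rpl28, not called in the first place, changed sign to -0.02 without the replicate block, and ranged from -0.25 to 0.49 when 1 library was left out. The library block changed no call.

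Members apart in replicate 3 numbered 57 with TMM, 38 with DESeq2's size factors, 42 with no filter, 45 with replicate 2, 13 under TMM over genes with no opposite-strand exons and 7 with DESeq2. With replicate 2 and without replicate 1 or 4 they numbered 27 and 39. Under that TMM alternative Rpl7a (0.04), Rpl12 (0.23), Rpl21 (0.02), Rpl28 (0.02), Rps26 (0.05), Rpl23a (0.23) and Rpl19 (0.17) changed sign. Relative to the median gene, members were lower by 0.58 to 1.24 on the log2 scale in the 8 settings, of which the scalings cannot move this value. Members apart in replicate 1 ranged from 0 to 25 and in replicate 4 from 0 to 9 when replicate 2 was added and another left out. Partners apart in replicate 3 numbered 3, but 12 under that TMM alternative, 0 with DESeq2, 0 with replicate 2 and 0 with another library then left out. The cause of these differences was not tested. Adding replicate 2 moved the mean share of members from 0.633% to 0.917%. Leaving 1 of the 3 deep libraries out of the library comparison gives no residual degree of freedom, so this was run only with replicate 2. Counts under 20 per library limit the lowest members.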

Other observations

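The pair fit also covered 14 overlapping pairs of assembly, TOP and paralog genes. The partner was higher in 5 and the listed gene in 8, and 1 was not called, in the edgeR fit over all pairs. Read from the side of each protein-coding gene, the partner was higher in 61.6% of all tested pairs and lower in 29.3%. The 5 of 14 is not read as a trait of the listed genes. The 5 were Rpl22l1 under Gm33051, Pes1 under 4930556J24Rik, Polr1a under Gm26628, Btf3 under Gm9828 and Dkc1 under Mpp1. Gm9828 had 6153, 5158 and 3815 counts in replicates 1, 3 and 4 opposite Btf3, a subunit of the nascent polypeptide-associated complex, which had 75, 14 and 51. Gm33051 had 1842, 1763 and 1429 counts opposite Rpl22l1, the paralog of Rpl22, with 12, 5 and 12. For both genes the partner was above the listed gene in every library. Bysl ran the other way, with 3255, 2611 and 2184 counts against 118, 58 and 84 for Ccnd3, a D-type cyclin gene of lymphocytes.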
